A study of Mus musculus with 8 samples.

Results

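The collagen chains of mouse pancreatic islets were taken as every probe set annotated to a single gene whose symbol is Col, a number, the letter a and a number, such as Col1a1. This rule uses names and no measured value, and it found 82 probe sets of 42 genes among the 45101 probe sets and 18194 singly annotated genes of the array. Islet RNA came from male C57Bl/6J mice, a strain in which all mice of both diets carry a naturally occurring mutation of nicotinamide nucleotide transhydrogenase. The NC group (replicates 1, 2, 4 and 5) ate regular rodent chow, with 4 kcal% fat in the methods, and the HF group (replicates 21, 22, 23 and 24) ate a diet with 45 kcal% fat. Time on diet from weaning at 4 weeks of age was 12 weeks in the sample labels and 14 weeks in the methods. Each of the 4 NC and 4 HF samples was a pool of the islets of 2 mice on 1 array, so that n counts pools. The islets had been released with collagenase, an enzyme mixture that cuts collagen, separated on Ficoll and picked by hand.

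Collagens are matrix proteins in which 3 alpha chains wind into a triple helix, and each alpha chain has a gene of its own. Fibrillar collagens (types I, II, III, V, XI, XXIV and XXVII) build fibres, FACIT collagens sit on the surface of these fibres, type IV chains form the sheet of basement membranes, and types VI, VIII and X form beaded filaments or networks. In the pancreas, fibrillar collagens are made mainly by fibroblasts and stellate cells, whereas the basement membrane around islet capillaries is largely a product of endothelial cells. Before secretion the chains are hydroxylated and folded, and outside the cell they are trimmed and crosslinked.

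For 33 of the 42 genes RefSeq gave a promoter window on GRCm38.p6, from 250 bases before the gene start to 50 bases from it on. Windows are shown for Col1a2 and Col3a1, fibrillar chains that were lower in HF islets, and for Col4a1 and Col4a2, whose windows lie on opposite strands of chromosome 8 and share 78 bases. Capitals mark the CCAAT box, the GC box (GGGCGG) and the TATA box (TATAAA), searched on both strands, so that the CCAAT box appears as ATTGG, and the GC box as CCGCCC, where it lies on the opposite strand. In the 4 windows shown no match overlapped another, whereas GC boxes overlap each other in a window of Col6a2 and of Col8a2. The GC box of Col4a1 and the last GC box of Col4a2 are the same bases, read from either strand.
Col1a2, chr6:4505368-4505667, plus strand: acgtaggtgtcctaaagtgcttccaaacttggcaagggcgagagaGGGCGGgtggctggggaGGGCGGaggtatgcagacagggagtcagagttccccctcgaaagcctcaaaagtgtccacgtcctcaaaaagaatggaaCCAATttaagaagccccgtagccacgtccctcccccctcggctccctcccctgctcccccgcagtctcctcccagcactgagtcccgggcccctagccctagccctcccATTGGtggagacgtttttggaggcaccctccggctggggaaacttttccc
Col3a1, chr1:45311288-45311587, plus strand: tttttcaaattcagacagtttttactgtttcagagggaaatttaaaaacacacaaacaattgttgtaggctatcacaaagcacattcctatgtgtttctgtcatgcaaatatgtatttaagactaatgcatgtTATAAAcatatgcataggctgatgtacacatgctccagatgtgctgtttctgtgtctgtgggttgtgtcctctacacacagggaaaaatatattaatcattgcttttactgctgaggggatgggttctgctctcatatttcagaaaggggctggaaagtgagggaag
Col4a1, chr8:11312777-11313076, minus strand: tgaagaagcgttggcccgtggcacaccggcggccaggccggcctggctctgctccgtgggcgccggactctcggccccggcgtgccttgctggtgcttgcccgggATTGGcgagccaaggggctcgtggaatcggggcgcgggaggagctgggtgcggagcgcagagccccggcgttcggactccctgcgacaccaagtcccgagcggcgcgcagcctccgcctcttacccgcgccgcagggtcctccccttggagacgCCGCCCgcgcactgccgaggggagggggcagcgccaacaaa
Col4a2, chr8:11312555-11312854, plus strand: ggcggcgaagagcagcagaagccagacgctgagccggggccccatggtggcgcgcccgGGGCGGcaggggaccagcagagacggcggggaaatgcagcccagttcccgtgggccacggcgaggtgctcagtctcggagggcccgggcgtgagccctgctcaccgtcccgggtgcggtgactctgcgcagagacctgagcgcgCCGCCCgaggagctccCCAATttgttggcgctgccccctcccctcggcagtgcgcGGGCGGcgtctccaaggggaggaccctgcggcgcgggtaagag
Of all 32851 windows, 37.4% held a CCAAT box, 35.7% a GC box and 13.6% a TATA box. Among the 33 collagen genes, 13 held a CCAAT box (39.4%), 21 a GC box (63.6%) and 5 a TATA box (15.2%). Of the 12 chains that were lower in HF islets 9 had a window, of which 4 held a CCAAT box, 6 a GC box and 1, that of Col3a1, a TATA box. These letters are a description of the windows and are not shown to be sites in use.

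Values are the authors' GCRMA intensities, which are background adjusted and normalized across arrays. As many probe sets as the methods had retained by present flags were kept, ranked by the third-highest of their 8 values and ignoring diet, and the lowest level kept was 8.82. The diets were compared with limma, and a probe set was called changed where the p adjusted over all retained probe sets was under 0.05 and the fold change at least 1.5. Median intensity lay between 13.03 and 13.8 on the 8 arrays. Of the 9 beta cell markers 7 had a retained probe set and none of the 7 passed the test, with a summed intensity of 237800 to 244702 in NC and 252531 to 263744 in HF. Acinar cell markers were also high in all samples, at 220881 to 282802 in NC and 240464 to 275088 in HF, with 6 of 8 retained and none passing. Among all genes tested 4.28% were lower and 0.447% higher, so that lists this short can hold no call by share alone.

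Of the 82 collagen probe sets 40 were retained, and 18 of the 40 were lower in HF, against 3.06% of all retained probe sets. None was higher in HF by limma, against 0.644% of all. At an unadjusted p under 0.05, which was not counted over all retained probe sets, there were 0 higher and 27 lower. The equal-variance test that the methods name likewise gave 0 higher. A probe set that passes a filter on low values through its NC level alone has to differ, so all 82 were also tested without the filter. That fit gave 16 lower and 0 higher, against 1.27% lower among all probe sets of the array. In 22 of the retained probe sets all 4 HF samples lay below all 4 NC samples, against 7.84% of all retained probe sets. In 0 did they lie above, an order that was not counted over all retained probe sets. The median difference of all 42 genes was -0.13 on the log2 scale, against 0.0034 over the 18194 genes.

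Taking for each gene the retained probe set with the highest mean, 27 collagen genes were measured. Of these 12 were lower in HF, against 4.28% of all genes tested, and 0 were higher by limma, against 0.447%. Fibrillar chains made up 4 of the 12, from 8 measured of 11. The FACIT chains contributed 1 of 5 measured, of 9 in all. Network and beaded filament chains contributed 3 of 4 measured, of 8, and basement membrane chains 4 of 7 measured, of 8. None of the 3 measured anchoring, transmembrane and other chains passed, of 6. Over all genes of a group, measured or not, the median log2 difference was -0.50 for fibrillar, -0.01 for FACIT, -0.38 for network and -0.53 for basement membrane chains, and -0.0043 for the rest. The 15 genes with no retained probe set were Col2a1, Col11a1 and Col11a2 (fibrillar), Col9a1, Col12a1, Col19a1 and Col22a1 (FACIT), Col6a4, Col6a5, Col8a2 and Col10a1 (network), Col4a6 (basement membrane), and Col7a1, Col17a1 and Col25a1. In 40 of the 42 probe sets that were not retained, all 8 values lay under 8.82.

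**Figure D1:**
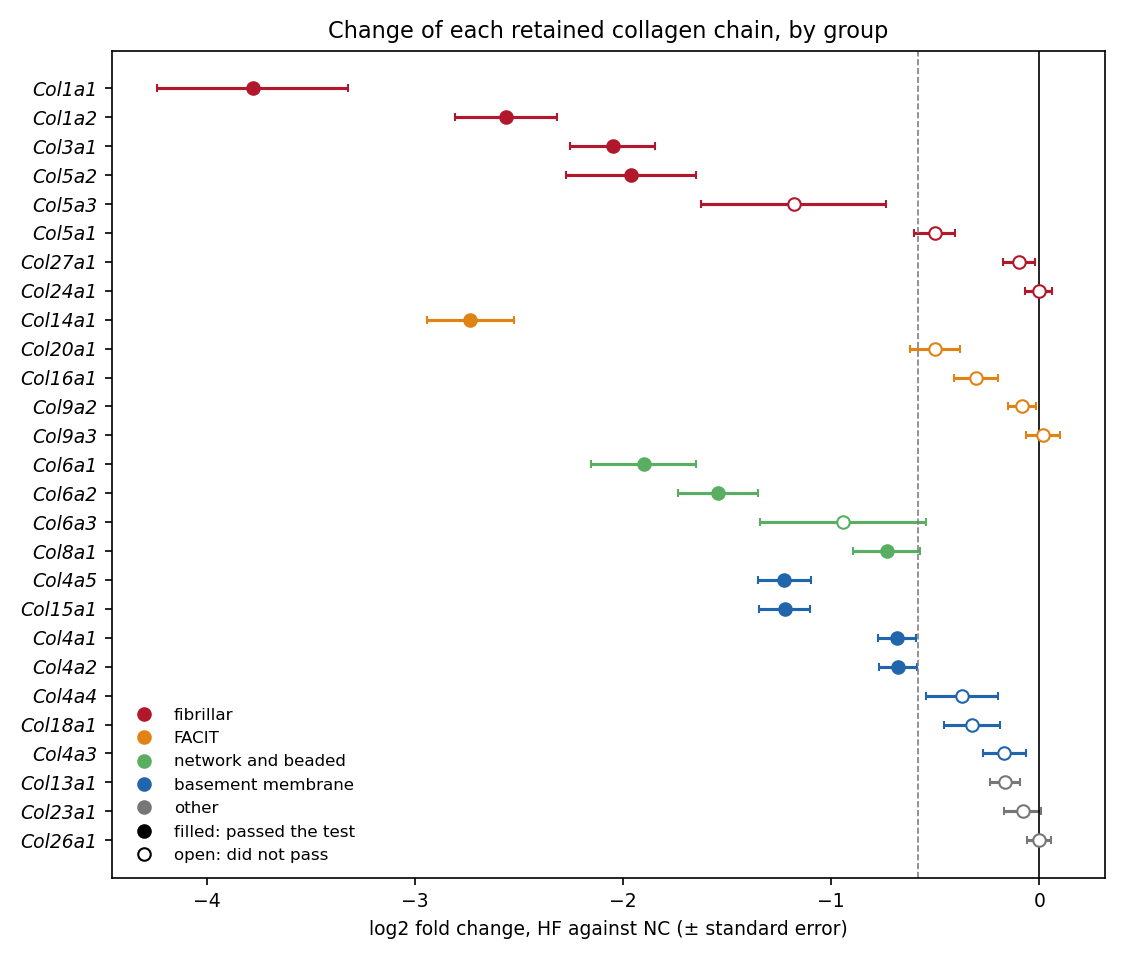
Log2 fold change of HF against NC for the 27 measured collagen genes, with its standard error from limma (4 samples per diet). Colours give the group, filled points passed the test, and the dashed line marks a fold of 1.5. The 12 filled points reach from -0.68 for Col4a2 to -3.78 for Col1a1, and no filled point lies to the right of 0.

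Among the fibrillar chains, Col1a1, Col1a2, Col3a1 and Col5a2 fell in HF islets to between 7.28% and 25.7% of NC. Type I collagen, the main fibre of connective tissue, is built from Col1a1 and Col1a2. Col1a1 had intensities of 260.3, 300.5, 234 and 412 in NC and of 15.5, 56.8, 20.8 and 11.5 in HF. The HF samples lay far below the NC samples, with HF replicate 22 the highest of them, and the log2 change was -3.78 (SE 0.46, n = 4 per diet, limma, adjusted p = 0.00376). A second probe set of Col1a1 was near the lower end of the scale, at 26.8, 12.4, 12.8 and 25.3 in NC and 10.7, 12.3, 10.6 and 12.6 in HF. There the groups overlapped and the difference of -0.66 did not pass (limma, adjusted p = 0.215). With both probe sets averaged, Col1a1 was -2.22 on the log2 scale and passed (limma, adjusted p = 0.0026). Both the size of its change and its call thus depended on the probe set, while the average kept the call.

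Col1a2, the partner chain in type I collagen, measured 1667, 1337, 1066 and 1651 in NC and 269.6, 297, 275 and 147 in HF. The groups were well apart, HF replicate 24 was the lowest sample, and the log2 change was -2.56 (SE 0.25, limma, adjusted p = 0.00162). Its other retained probe set fell by 2.35 on the log2 scale (limma, adjusted p = 9.82e-04). Type III collagen, which forms the fine fibres of distensible tissues and vessel walls, is made of Col3a1 chains alone. Col3a1 measured 5678, 4599, 4391 and 6123 in NC and 1184, 1847, 1126 and 969.9 in HF. Again no HF sample reached an NC sample and HF replicate 22 was the highest of its group, with a log2 change of -2.05 (SE 0.20, limma, adjusted p = 0.00187). A second Col3a1 probe set gave -2.26 (limma, adjusted p = 0.0135), with HF replicate 23, at 8.38, under the lowest retained level.

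Type V collagen starts the assembly of type I fibres and limits their width. Col5a2 measured 294, 235, 209.9 and 259.9 in NC and 59.6, 116, 36.1 and 65.7 in HF. The groups did not overlap and the log2 change was -1.96 (SE 0.31, limma, adjusted p = 0.0112). Its second probe set, at 8.65 to 13.6 in NC and 7.65 to 8.57 in HF, was under the lowest retained level in all 4 HF samples and did not pass (limma, adjusted p = 0.306). The partner chain Col5a1 was split between its probe sets in the other direction. The brighter one measured 24.3, 20.3, 21.5 and 22.5 in NC and 16.7, 13.99, 17.9 and 14.2 in HF, which gave -0.50 (limma, adjusted p = 0.0244), under the fold limit. The dimmer one, at 19.8, 15.8, 13.5 and 24.9 in NC and 8.04, 9.45, 10.5 and 8.25 in HF, changed by -0.997 on the log2 scale (limma, adjusted p = 0.0213). In this probe set 2 of the 4 HF values were under the lowest retained level, and the call ended without the filter (limma, adjusted p = 0.0511). With the probe sets averaged Col5a1 passed, at -0.75 (limma, adjusted p = 0.00721).

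The third type V chain, Col5a3, did not pass and had the widest NC spread of the measured chains on the log2 scale. Its NC samples were at 36.0, 7.24, 12.0 and 22.8, and its HF samples at 6.99, 7.81, 6.54 and 7.54. NC replicate 2 lay within the HF samples, which were all under the lowest retained level, so that the fitted difference of -1.18 (limma, adjusted p = 0.179) is no bound on the change. Col24a1 and Col27a1, fibrillar chains of cartilage and bone, differed by -0.0028 and -0.10 on the log2 scale with overlapping groups. A second retained probe set of Col27a1 had all HF samples below all NC samples, at -0.48, and did not pass (limma, adjusted p = 0.156). The intensities of Col24a1 lay between 8.03 and 9.58 in all 8 samples, close to the lowest retained level.

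**Figure D2:**
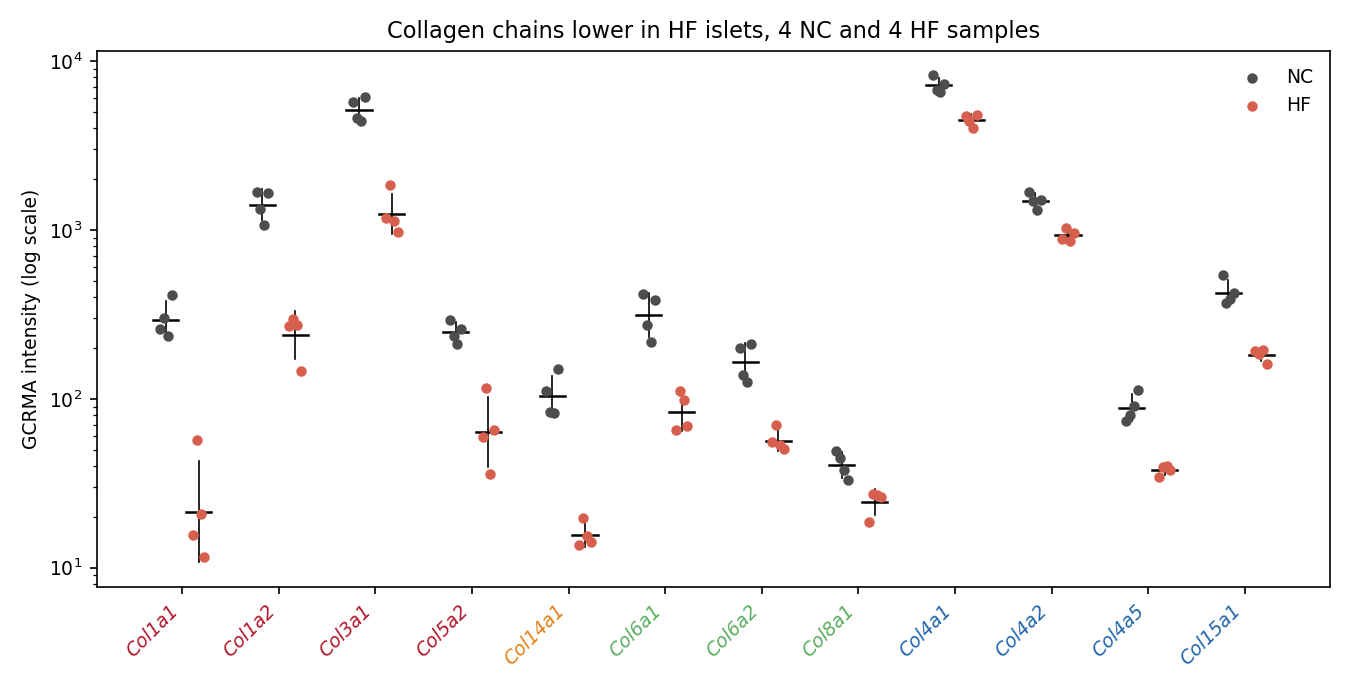
GCRMA intensity, on a log scale, of the 12 collagen genes that were lower in HF islets, with 1 point per sample (4 NC, 4 HF). The bar is the mean of the log2 values and the line spans 1 SD of them. In every gene all 4 HF points lie below all 4 NC points, with the widest gap for Col1a1 and Col14a1 and the narrowest for Col8a1.

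Among FACIT chains Col14a1 fell to 15.0% of NC, whereas the other 4 measured chains did not pass. Type XIV collagen binds to the surface of fibrils and is made by fibroblasts of dense connective tissue. Col14a1 measured 111, 83.4, 82.8 and 149 in NC and 13.6, 19.8, 15.4 and 14.2 in HF. The HF samples lay close together and far under NC, with a log2 change of -2.73 (SE 0.21, limma, adjusted p = 9.82e-04). Its second probe set fell by 1.62 on the log2 scale (limma, adjusted p = 0.00158), with HF replicate 21, at 8.68, under the lowest retained level. Col20a1 was lower in every HF sample, at 36.3 to 48.9 in NC and 26.7 to 34.9 in HF, but its difference of -0.50 (limma, adjusted p = 0.0481) was under the fold limit. Col16a1, a FACIT chain found in many tissues, differed by -0.30 (limma, adjusted p = 0.150). The cartilage chains Col9a2 and Col9a3 differed by -0.08 and 0.016, with overlapping groups.

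In the network group Col6a1, Col6a2 and Col8a1 were lower in HF islets, while Col6a3 was not called. Type VI collagen makes the beaded filaments that surround cells next to basement membranes, and its basic unit takes 1 chain each of Col6a1, Col6a2 and a longer chain such as Col6a3. Col6a1 measured 418, 274, 218 and 387 in NC and 65.8, 111, 98.8 and 68.7 in HF, a log2 change of -1.90 (SE 0.25, limma, adjusted p = 0.00524). Col6a2 measured 201, 138, 126 and 212 in NC and 55.1, 69.6, 53.1 and 50.3 in HF, a log2 change of -1.54 (SE 0.19, limma, adjusted p = 0.00402). Neither gene had an HF sample within NC, and a second Col6a2 probe set gave -1.15 (limma, adjusted p = 0.00728). Col6a3 behaved differently from sample to sample, with 954.5, 599, 645 and 632 in NC and 715, 252, 192 and 493 in HF. HF replicate 21, the lowest HF sample for Col6a1, was the highest for Col6a3 and lay above 3 of the 4 NC samples. The groups overlapped and the difference of -0.94 (SE 0.40) did not pass (limma, adjusted p = 0.230). Whether the change of Col6a3 differs from that of Col6a1 was not tested.

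Col8a1, a short-chain collagen of vessel walls, measured 49.2, 44.5, 38.0 and 33.0 in NC and 18.7, 27.2, 26.9 and 26.2 in HF. The groups did not overlap and the log2 change was -0.73 (SE 0.16, limma, adjusted p = 0.0369). Its second probe set lay at 10.7, 11.5, 10.6 and 11.0 in NC and at 10.5, 10.6, 10.5 and 8.34 in HF, with overlapping groups. The call of Col8a1 ended when any sample but NC replicate 5 was left out (limma, adjusted p = 0.0583 to 0.0987) and without the filter (limma, adjusted p = 0.0809). It ended also with both probe sets averaged, at -0.44, under the fold limit.

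Of the basement membrane chains, Col4a1, Col4a2, Col4a5 and Col15a1 fell in HF islets, by 0.68 to 1.22 on the log2 scale. The main type IV network of nearly all basement membranes is built from Col4a1 and Col4a2 chains. Col4a1 measured 8248, 6728, 6561 and 7289 in NC and 4730, 4415, 3989 and 4796 in HF, a log2 change of -0.68 (SE 0.09, limma, adjusted p = 0.00564). Col4a2 measured 1684, 1483, 1309 and 1513 in NC and 888, 1024, 864 and 957 in HF, a log2 change of -0.68 (SE 0.09, limma, adjusted p = 0.00523). In both genes the HF samples sat in a tight range beneath the NC samples, at 62.3% and 62.5% of NC, and the second Col4a1 probe set gave -0.69 (limma, adjusted p = 0.00677).

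Col4a5, a chain of the minor type IV networks known from kidney and smooth muscle, measured 74.1, 80.5, 90.5 and 113 in NC and 34.6, 39.4, 39.8 and 37.8 in HF. Its log2 change was -1.22 (SE 0.13, limma, adjusted p = 0.00224) and the groups were well apart. Col15a1, which links basement membranes to the fibres beneath them, measured 537, 371, 388 and 423 in NC and 193, 184, 194 and 160.2 in HF. All HF samples lay under all NC samples and the log2 change was -1.22 (SE 0.12, limma, adjusted p = 0.00198). Col18a1, the relative of Col15a1 from which endostatin is cut, differed by -0.32 (limma, adjusted p = 0.216). Its second probe set was not retained, at 4.43 to 8.37 in NC and 3.44 to 3.74 in HF. There all HF samples lay below all NC samples, at -0.81, and without the filter it did not pass (limma, adjusted p = 0.0836). Col4a3 and Col4a4, the partners of Col4a5 in kidney, differed by -0.17 and -0.37 (limma, adjusted p = 0.419 and 0.280), with overlapping groups. The transmembrane chains Col13a1 and Col23a1 and the remaining chain Col26a1 differed by -0.17, -0.08 and -0.0035 on the log2 scale, and their groups overlapped.

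**Figure D3:**
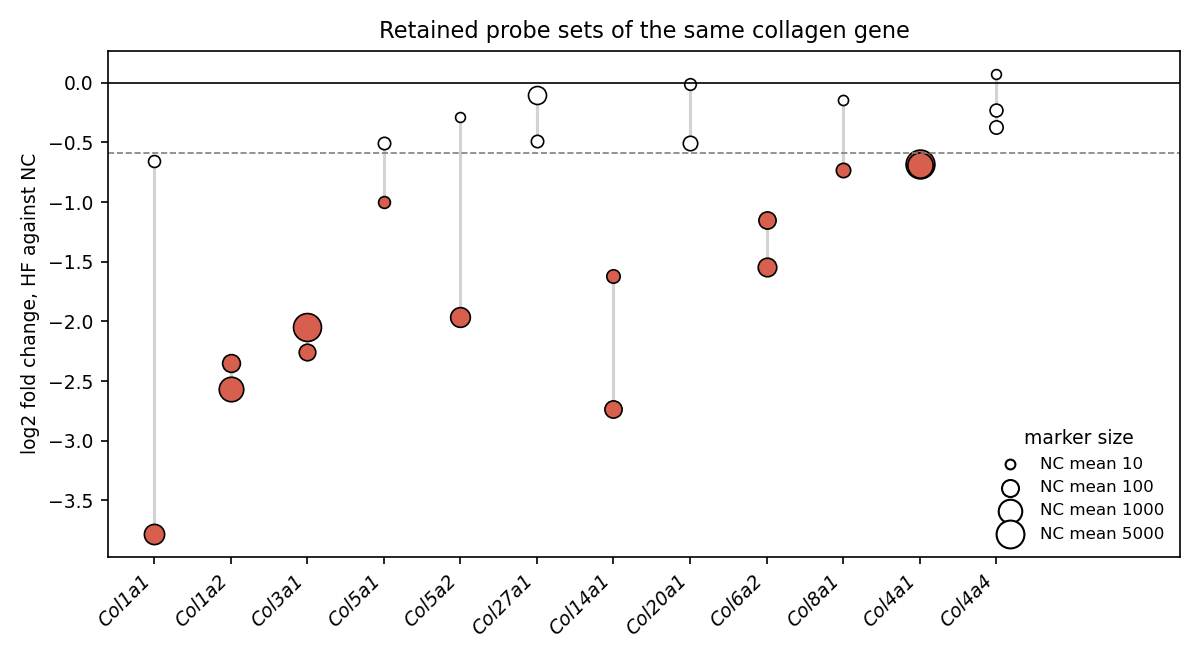
Log2 fold change of HF against NC for each retained probe set of the 12 collagen genes that have several, joined by a line per gene. Marker area grows with the NC mean intensity, filled points passed the test, and the dashed line marks a fold of 1.5. Probe sets of Col1a2, Col3a1, Col14a1, Col6a2 and Col4a1 all passed, while those of Col1a1, Col5a1, Col5a2 and Col8a1 were split.

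The changes of a fibrillar, a FACIT and a basement membrane chain were set against each other within arrays, for the 6 pairs of Col1a1, Col3a1, Col4a1 and Col14a1. With the brightest probe set of each, Col1a1 fell more than Col4a1, a difference of -3.10 on the log2 scale (SE 0.56), and more than Col3a1, a difference of -1.73 (SE 0.34). Col3a1 in turn fell more than Col4a1, with -1.37 between them (SE 0.23). Col14a1 fell more than Col4a1, whose change minus that of Col14a1 was 2.05 (SE 0.23), and more than Col3a1, where the same difference was 0.68 (SE 0.14). Each of these 5 differences had p = 0.0286 in an exact two-sided permutation test, the smallest that 70 arrangements allow, and an adjusted p of 0.0343 over the 6 pairs. The difference of -1.05 between Col1a1 and Col14a1 (SE 0.41) did not pass (exact permutation test, p = 0.114). With the retained probe sets of a gene averaged, all 5 calls ended. The change of Col1a1 minus that of Col4a1 was then -1.53, that of Col3a1 minus Col4a1 -1.47 and that of Col4a1 minus Col14a1 1.49 (exact permutation test, adjusted p = 0.0571 for each, which is what the smallest p of 0.0286 comes to when 3 of 6 pairs reach it). Between Col1a1 and Col3a1 the difference became -0.065, and between Col3a1 and Col14a1 0.025 (exact permutation test, adjusted p = 0.943 for both).

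Chains that lie next to each other in the genome, with no protein-coding gene between them in RefSeq, formed 7 pairs. Col3a1 and Col5a2 on chromosome 1 were both lower (-2.05 and -1.96), as were Col6a2 and Col6a1 on chromosome 10 (-1.54 and -1.90) and Col4a1 and Col4a2 on chromosome 8. Col4a4 and Col4a3 were both measured and neither passed. Col4a5 fell while its neighbour Col4a6 on chromosome X had no retained probe set, and in the pairs of Col9a1 with Col19a1 and of Col6a5 with Col6a4 no chain had one.

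Samples of a diet also differed from each other in an order that recurred across chains. Over the 12 chains that were lower in HF, NC replicate 1 was the highest NC sample in 7 and NC replicate 5 in 5, and NC replicate 4 was the lowest in 9. Among HF samples replicate 22 was the highest in 9, and replicate 24 was the lowest in 5, replicate 21 in 4 and replicate 23 in 3. The summed intensity of 8 fibroblast and stellate cell markers gave HF replicate 22 as the highest HF sample, at 3157, and HF replicate 24 as the lowest, at 2027. In NC the sum was highest in replicate 5, at 11599, and lowest in replicate 2, at 8134.

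**Figure D4:**
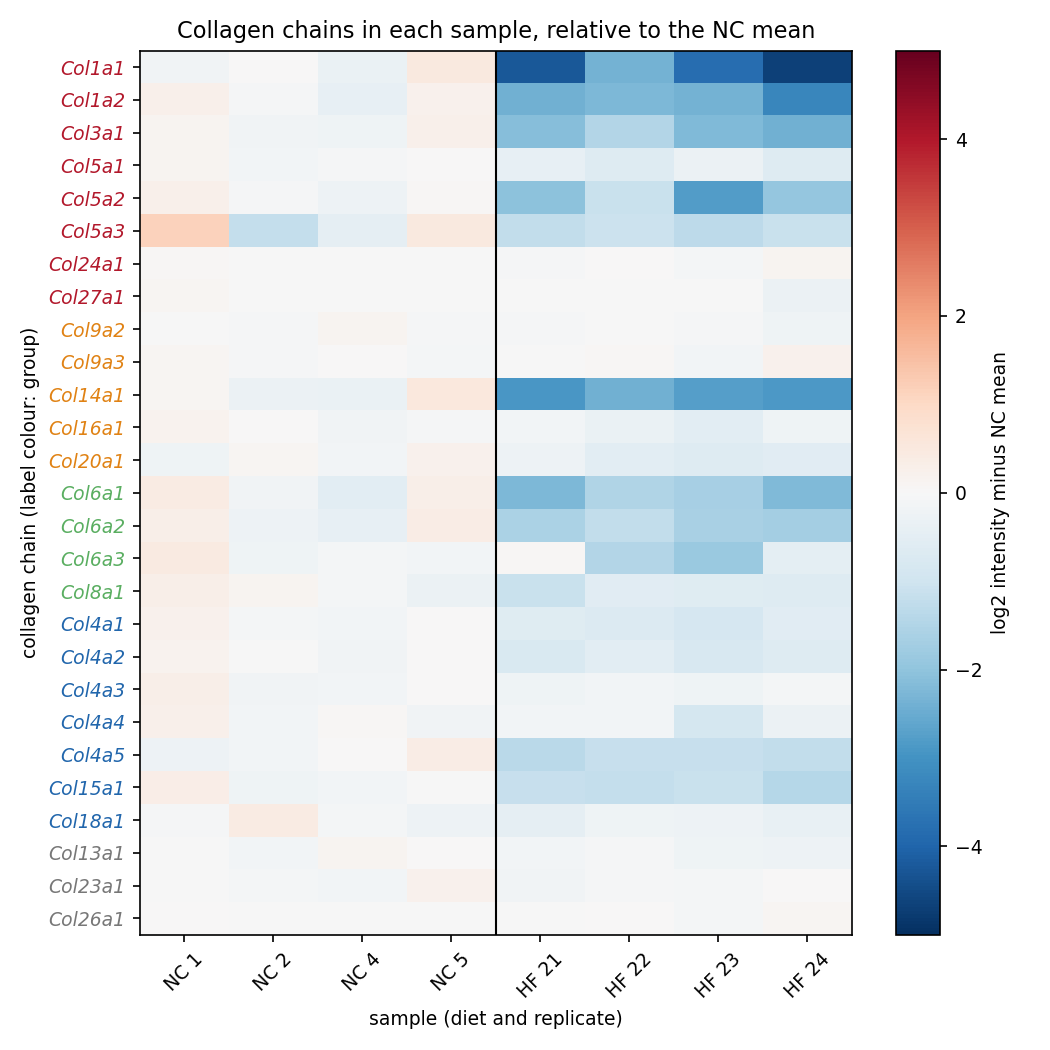
Log2 intensity of each of the 27 measured collagen genes in each of the 8 samples, minus the mean log2 intensity of the 4 NC samples. Blue is lower and red is higher, and label colours give the collagen group. The HF columns are blue for Col1a1, Col1a2, Col3a1, Col5a2, Col14a1, Col6a1, Col6a2, Col4a5 and Col15a1, while HF replicate 21 is near the NC mean for Col6a3.

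Some markers of fibroblasts, smooth muscle, endothelial cells, Schwann cells and macrophages were also lower in HF. In bulk islet RNA, fewer cells of a type and less RNA per cell cannot be told apart. Of 10 fibroblast and stellate cell markers 8 were retained and 7 fell, against 4.28% lower among all genes tested, with a median of -2.28 on the log2 scale and a summed intensity of 8134 to 11599 in NC and 2027 to 3157 in HF. For smooth muscle and pericytes 5 of 8 markers were retained and 4 fell (median -1.29), at 10481 to 11618 in NC and 7039 to 8085 in HF. Such sums are led by the brightest marker. Here Rgs5, at 7541 to 8155 in NC and 5965 to 6762 in HF, made up most of the sum. Its difference of -0.28 was under the fold limit. Endothelial cell markers, 8 retained of 8, had 2 that fell (median -0.55), at 14473 to 16542 in NC and 11082 to 12551 in HF. For Schwann cells 4 of 7 markers were retained and 2 fell, at 183 to 247 in NC and 47.7 to 72.1 in HF, and for macrophages 6 of 6 were retained and 4 fell, at 2282 to 2682 in NC and 1079 to 1245 in HF. No retained marker of acinar, duct or beta cells passed. At 4.28% lower and 0.447% higher among all genes tested, lists this short can hold no call by share alone. The duct marker Krt19 had all HF samples below all NC samples, at -1.77 (limma, adjusted p = 0.0534). All 4 of its HF values were under the lowest retained level. Levels of single fibroblast markers in HF differed widely. Dcn, which coats collagen fibres, had a mean of 677 against 3517 in NC and Pdgfra, a growth factor receptor, of 38.3 against 168. Thy1, a surface protein, was at 10.8 to 49.4 in HF against a mean of 134 in NC, and Cdh11, a cadherin, had 2 of 4 HF samples under the lowest retained level. Pdgfrb changed less, at -0.64 on the log2 scale (limma, adjusted p = 0.0310), and Des, at -0.26, did not pass (limma, adjusted p = 0.128). Fap and Twist1 were not retained. The part of these cells in the collagen result was not tested.

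Of 18 genes for hydroxylation and folding in the endoplasmic reticulum 16 were retained, and Serpinh1, the chaperone dedicated to procollagen, was the 1 that fell, a share near the 4.28% of all genes tested that were lower. Serpinh1 measured 1373, 1473, 1398 and 1554 in NC and 580.0, 839, 533 and 566 in HF, a log2 change of -1.23 (SE 0.14, limma, adjusted p = 0.00298) with no overlap. P4hb, the disulphide isomerase that is also a subunit of prolyl hydroxylase, differed by 0.19 (limma, adjusted p = 0.0644), Mia3, which helps to export procollagen, by 0.14, and the isomerase Ppib by 0.03. P3h4, a member of a hydroxylase complex that was chosen here after its values were seen, was higher in every HF sample by 0.48 (limma, adjusted p = 0.0253), under the fold limit. P4hb, Mia3 and P3h1 likewise had all HF samples above all NC samples and did not pass. How often this order occurs among all genes tested was not counted, so nothing is concluded from it.

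Outside the cell, the procollagen C-proteinase enhancer Pcolce measured 181, 127, 155 and 272 in NC and 23.7, 49.2, 32.8 and 29.5 in HF. The groups were far apart and the log2 change was -2.44 (SE 0.28, limma, adjusted p = 0.00304). Bmp1, the C-proteinase itself, differed by 0.23 and did not pass, and these were the 2 retained of 8 processing genes. The crosslinking enzyme Loxl1, the only retained gene of 5, measured 88.3, 63.9, 64.4 and 94.7 in NC and 20.3, 20.7, 20.0 and 18.8 in HF, a log2 change of -1.94 (SE 0.14, limma, adjusted p = 9.82e-04) with all HF samples close together.

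Of 10 collagen receptors 5 were retained, and Ddr2, a receptor kinase for fibrillar collagen, was the 1 that fell, a single call against 4.28% lower among all genes tested. Ddr2 measured 92.0, 51.9, 37.9 and 75.6 in NC and 24.9, 25.4, 24.9 and 25.8 in HF, with no overlap and a log2 change of -1.27 (SE 0.25, limma, adjusted p = 0.0244). It no longer passed when NC replicate 5 or any of the HF samples was left out (limma, adjusted p = 0.0550 to 0.0711) and without the filter (limma, adjusted p = 0.0590). Ddr1, the related receptor of epithelial cells, differed by -0.13, the integrin chain Itgb1 by 0.11 and its partner Itga1 by -0.53 (limma, adjusted p = 0.0645), and none of these passed.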

How the data were processed

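Islet RNA of 4 NC and 4 HF samples had been hybridised to GeneChip mouse arrays, with 5 ug of total RNA per array. The authors read the probe signals into ArrayAssist Lite 3.4 and summarised them with GCRMA, and the deposited intensity values, on a linear scale, are 1 per probe set and sample. They were taken to log2 here without further normalization. Genes were named from the platform annotation, in which 34958 probe sets have 1 gene, 932 several and 9211 none named. Present flags were not used here, and the filter on the third-highest intensity took their place. The comparison of diets used limma 3.58.1 (lmFit, eBayes) under R 4.3.3, with Benjamini-Hochberg adjustment over all retained probe sets. The brightest retained probe set, by its mean over the 8 samples, stood for a gene. The SAM test of the methods was not run.

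Every collagen chain with a retained probe set was accounted for, values per sample were given for chains that passed or whose probe sets differed in call, and of each pathway list at most 4 genes were named, the smallest p among those that passed or otherwise the highest mean, with P3h4 added after its values were seen. The collagen groups, pathway genes and cell markers were chosen with earlier results of these data known. The test was run on simulated data first. Alternatives were other filters, scalings, variance models, tests, thresholds and ways to pick a probe set, and dropping each sample in turn. Precision is limited by the number of arrays. The labels give no extraction or scan batch, so none was tested. Promoter windows and gene neighbours are those of RefSeq on GRCm38.p6, and the build behind the array annotation is not given in the sources used here.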

Additional observations from a re-analysis of the deposited data

Results flagged for a closer look

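In 9 of the 54 groups of 4 samples, from the 27 measured collagen genes, 1 sample stood far from the other 3 by Dixon's ratio. Chance alone gives this in about 1 group in 20 when groups are independent, whereas these groups share the same 8 arrays. The ratio is relative to the range of each group, so a small difference can be flagged. Among chains that were lower in HF, HF replicate 24 was low for Col1a2, at an intensity of 147 against 269.6 to 297 in the other HF samples, and HF replicate 21 was low for Col8a1, at 18.7 against 26.2 to 27.2. For Col6a3, NC replicate 1 was high, at 954.5 against 599 to 645. NC replicate 1 was also high for Col24a1 (9.03 against 8.58 to 8.64), Col26a1 (9.82 against 9.58 to 9.61) and Col27a1 (148 against 137 to 138). HF replicate 24 was low for Col27a1 (113 against 137 to 139) and Col9a2 (23.98 against 26.7 to 27.3). NC replicate 4 was high for Col9a2 (30.6 against 26.5 to 27.1). None of these chains but Col1a2 and Col8a1 passed the test between diets.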

How the results depend on the processing

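The counts of collagen probe sets and genes kept their direction and stayed within 1.5 times of 18 and 12 under all alternatives, with 13 to 20 probe sets and 9 to 14 genes lower and 0 higher. The fewest came with a fold of at least 2 and the most with no fold limit. The log2 changes lay between -4.25 and -2.22 for Col1a1 and between -2.24 and -1.93 for Col3a1. For Col14a1 they lay between -2.85 and -2.18, and for Col4a1 between -0.76 and -0.62. These chains stayed called, except that Col4a1, with a fold of 1.61, does not reach a fold of at least 2. Averaging the retained probe sets of a gene ended the call of 5 differences between chains, namely Col1a1 minus Col3a1 (-0.0647), Col1a1 minus Col4a1 (-1.53), Col3a1 minus Col4a1 (-1.47), Col3a1 minus Col14a1 (0.0249) and Col4a1 minus Col14a1 (1.49). In the pairs with Col4a1 the exact p stayed at the smallest that 70 arrangements allow, and the adjustment over 6 pairs ended the call. In the other pairs that lost the call the difference itself came near 0. Why probe sets of a gene differ in their change was not tested.

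Signs turned only for 3 chains near 0 that never passed. Col24a1 became 8.54e-04 after quantile normalization, 0.00997 with equal medians, 0.00859 with array weights, 2.07e-06 from linear means and 0.0217 with low values raised. Col9a3 became -0.0625 with arrays scaled on beta cell markers. Col26a1 became 0.00932 with equal medians and 0.00935 with array weights. With each sample left out in turn, Col24a1 lay between -0.0499 and 0.0349, Col9a3 between -0.0447 and 0.0673 and Col26a1 between -0.0427 and 0.0310. No paired analysis was possible because the diets share no replicate number in the labels. Chains with no retained probe set were not part of the main test. The level of 8.82 is where a cut by rank ended and is not a limit of detection.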
